A study of Arabidopsis thaliana with 11 samples.

Results

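The nuclear genome of Arabidopsis thaliana encodes many of the proteins that capture light and move electrons in the thylakoid membrane of the chloroplast, and the set described here holds 53 of those genes. They were taken from the 22160 genes of the count table by their locus codes, which name subunits of the complexes. The codes use no measured value, but the set was chosen with earlier results of these data known. By complex they are 6 genes of the light-harvesting antenna of photosystem I (LHCI), 9 of the major and 6 of the minor antenna of photosystem II (LHCII), 13 subunits of photosystem I (PSI), 11 of photosystem II (PSII), 6 genes of electron transport and 2 of the ATP synthase. All 53 were in the table and all 53 passed the filter on low counts. The lowest mean over the 11 libraries was 5.19 TMM-normalised CPM (counts scaled to library size), for LHCB7.

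Transcripts of whole seedlings were measured by strand-specific mRNA sequencing. All seedlings were 10 days old, untreated and grown on Murashige and Skoog medium at 1/2 strength with 1% sucrose. There were 3 libraries of wild type (accession Col-0), 2 of the single mutant xpo4-2, 3 of the single mutant cpr5 and 3 of the double mutant xpo4-2 cpr5, so that both cpr5 groups carry the cpr5 mutation and differ in xpo4-2. Triplicates are named in the design, of which xpo4-2 has 2 in these data. The CPR5 protein sits in the membrane of the nuclear pore, and its mutants have constitutive defence, and XPO4 encodes the nuclear transport receptor exportin-4. The labels name 1 allele of XPO4 and give no allele number for cpr5, and the origin of the replicates (sowing, plate or pool) is not stated. The spread that the p-values rest on is therefore that of these libraries and could be technical.

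As background, the antenna proteins bind chlorophyll and pass excitation energy to the reaction centres of the photosystems. PSII splits water at a site shielded by the lumenal PSBO, PSBP and PSBQ proteins, and electrons then pass through the cytochrome b6f complex, whose Rieske protein is PETC, to plastocyanin (PETE) and PSI. PSI reduces ferredoxin (FD2), from which ferredoxin-NADP reductase (FNR) makes NADPH, and the proton gradient built on the way drives the ATP synthase. The reaction-centre proteins themselves are encoded in the plastid genome, whereas the antenna and most of the outer subunits are nuclear and are imported into the chloroplast. In seedlings these genes are switched on by light, and the GLK transcription factors are among their activators.

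Library totals ran from 16922732 to 23088104 counts. XPO4 was at 19.6 to 23.5 CPM for wild type and 18.3 to 27.7 for cpr5, against 1.00 and 4.80 for xpo4-2 and 0 to 2.27 for the double mutant. CPR5 was at 8.08 to 13.3 CPM for wild type, 15.0 to 17.8 for cpr5 and 23.6 to 24.6 for the double mutant, so its level is no check on which libraries carry that mutation. Among the 3 wild-type libraries, replicate 3 was the lowest for 50 of the 53 genes and replicate 1 the highest for 44. Among the double mutant libraries, replicate 3 was the lowest for 50 and replicate 2 the highest for 47. Results that rest on these groups are given with each library left out where that changed them.

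In the double mutant against cpr5, LHCB1.4 and LHCB1.3 had the largest and the smallest fall within the major LHCII antenna, ATPD had the smallest fall that passed the test in the whole set, and LHCB4.3 had the fold change nearest to 0. The stretches upstream of these genes are printed for that reason, each as the 200 bases before the annotated start of the gene on its own strand, from the RefSeq annotation of the TAIR10.1 build. Capitals mark matches, on either strand, to the G-box CACGTG, the I-box GATAAG, the hexamer CCAATC that has been associated with GLK targets in Arabidopsis, and the TATA box TATAAA.
LHCB1.4, chr2:14524407-14524606, plus strand: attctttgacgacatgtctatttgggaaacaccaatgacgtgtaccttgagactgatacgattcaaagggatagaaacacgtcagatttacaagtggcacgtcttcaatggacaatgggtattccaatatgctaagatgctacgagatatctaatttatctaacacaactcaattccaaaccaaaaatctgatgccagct
LHCB1.3, chr1:10477685-10477884, plus strand: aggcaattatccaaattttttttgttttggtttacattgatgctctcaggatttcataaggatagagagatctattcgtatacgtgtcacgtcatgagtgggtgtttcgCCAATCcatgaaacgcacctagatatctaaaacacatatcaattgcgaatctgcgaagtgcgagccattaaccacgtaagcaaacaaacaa
LHCB4.3, chr2:16745428-16745627, plus strand: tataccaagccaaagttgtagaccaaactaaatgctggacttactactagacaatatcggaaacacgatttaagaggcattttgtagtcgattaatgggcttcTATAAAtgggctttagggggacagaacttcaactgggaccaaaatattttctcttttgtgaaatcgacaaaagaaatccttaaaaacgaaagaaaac
ATPD, chr4:6100514-6100713, plus strand: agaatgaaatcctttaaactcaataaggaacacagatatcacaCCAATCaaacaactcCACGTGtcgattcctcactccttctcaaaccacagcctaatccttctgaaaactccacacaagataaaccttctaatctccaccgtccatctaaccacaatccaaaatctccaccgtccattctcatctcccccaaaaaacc
None of the 4 motifs stood in the printed stretch of LHCB1.4. A CCAATC lay 91 bases before the start of LHCB1.3, and a TATAAA lay 97 bases before that of LHCB4.3. In ATPD a CCAATC lay 157 bases and a G-box 142 bases before the start.

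Over windows of 250 bases before the start, CCAATC was present for 14 of the 53 genes (26.4%) and for 10.2% of all 27443 protein-coding nuclear genes. It was present for 5 of 9 genes of the major LHCII antenna and 3 of 6 of LHCI, and for 0 of 13 PSI subunits. The G-box was present for 11 of the 53 genes (20.8%) and 6.49% of all, the I-box for 12 (22.6%) and 12.3%, and TATAAA for 24 (45.3%) and 47.4%. No matches of different motifs overlapped in any of these windows, and 24 of the 53 windows reach into a neighbouring gene. A match is a description of letters and not a site of binding.

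The shares of counts show the size of the change in the whole set. In the double mutant the 53 genes took 2.51%, 3.001% and 1.94% of all counts. They took 8.65%, 8.42% and 8.23% in cpr5, 11.1% and 9.59% in xpo4-2, and 9.71%, 8.40% and 6.13% in wild type. Every double mutant library was below every library of the other genotypes, and the spread was narrowest in cpr5. Whole seedlings were sequenced, so fewer photosynthetic cells and less of these transcripts per cell cannot be told apart.

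**Figure D1:**
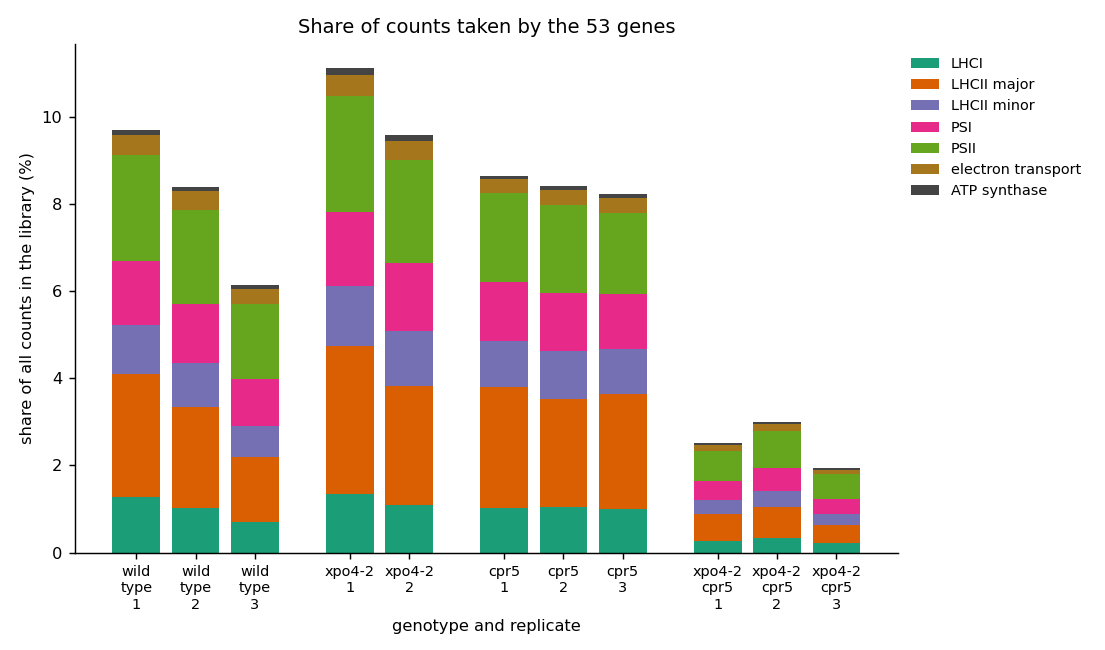
Share of all counts (vertical axis, %) taken by the 53 genes in each of the 11 libraries (horizontal axis, genotype and replicate), stacked by complex. The 3 double mutant bars end between 1.94% and 3.001%, below the lowest other bar at 6.13% (wild-type replicate 3).

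The comparison of the double mutant with cpr5 asks what loss of XPO4 changes in plants that lack functional CPR5. Of the 53 genes, 50 fell and 0 rose (edgeR quasi-likelihood test, Benjamini-Hochberg adjusted p under 0.05 over 21580 genes), where 12.9% of all genes tested fell and 8.82% rose. The median log2 fold change of the 53 genes was -1.83, against 0.01 over all genes tested. None of the 53 had a fold change above 0. By CPM, every double mutant library lay below every cpr5 library in all 53, which held for 24.0% of all genes tested, and below all 8 other libraries in 51, which held for 14.1%. By TPM both held for 51, with LHCB4.3 and PSBY overlapping cpr5. The 3 genes without a call were LHCB4.3 of the minor antenna, the PSII subunit PSBY and the plastocyanin PETE2.

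The fall against cpr5 was described by complex. By median log2 fold change the order was the major LHCII antenna (-3.03, 9 of 9 lower), LHCI (-2.28, 6 of 6), the minor LHCII antenna (-2.02, 5 of 6), PSI (-1.78, 13 of 13), PSII (-1.74, 10 of 11), electron transport (-1.52, 5 of 6) and the ATP synthase (-1.07, 2 of 2). Summed over genes, the level in cpr5 was 5.37 times that in the double mutant for the major LHCII antenna, 4.50 times for LHCI, 3.52 times for PSI, 3.37 times for PSII and 3.12 times for electron transport. These differences between complexes are descriptions, since the genes of a complex are not replicates.

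**Figure D2:**
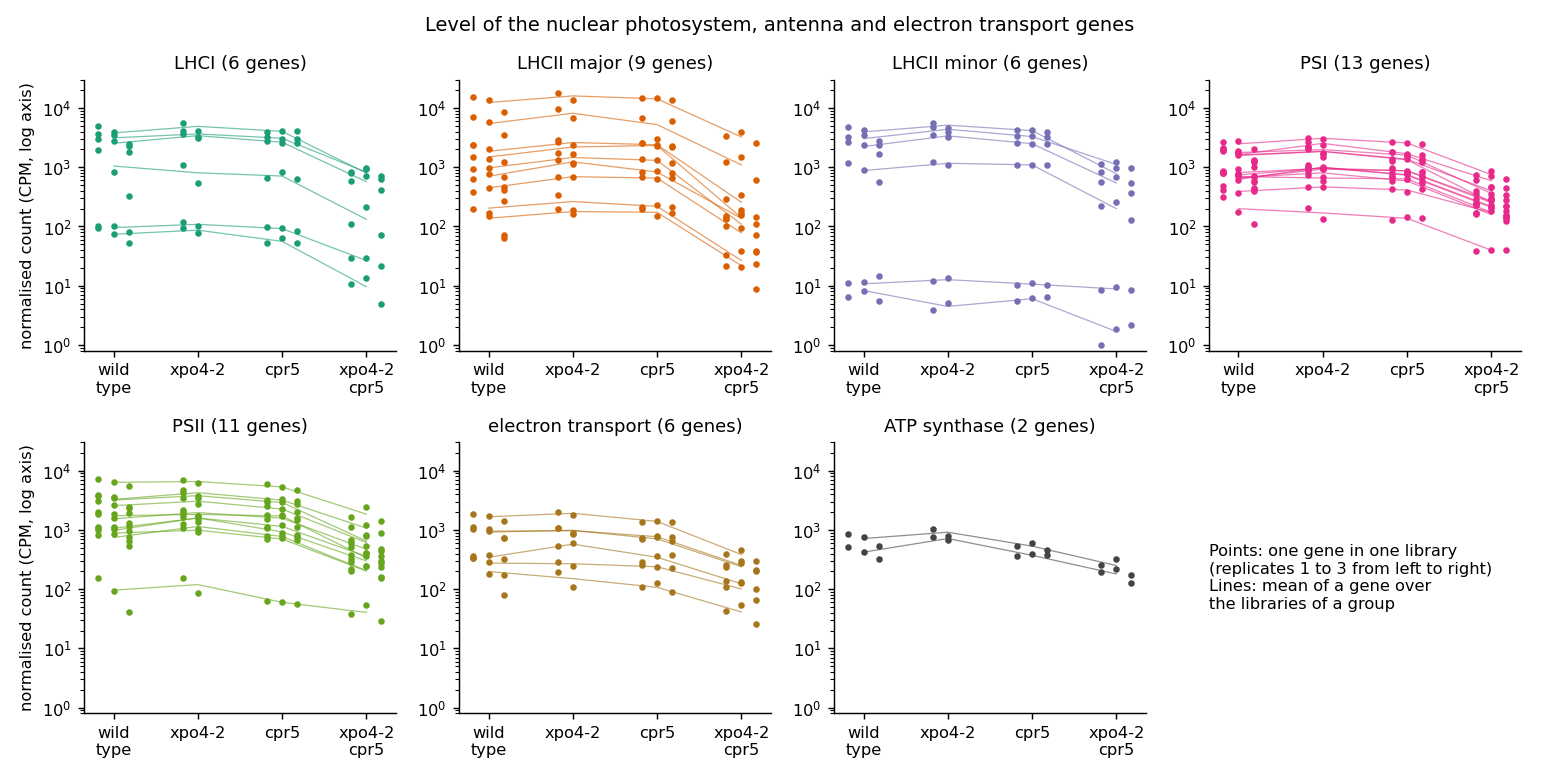
Normalised count (CPM, log axis) of each of the 53 genes in each library, by complex; each point is 1 gene in 1 library, and lines join the group means of a gene. The lines turn down in the double mutant, most steeply for LHCB1.4 (2332 to 141 CPM from cpr5 to the double mutant) and least for LHCB4.3 (10.6 to 8.82 CPM).

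The antenna was also set against the photosystem subunits per transcript length (TPM, the length-scaled share of transcripts). The summed TPM of all LHCII genes divided by that of the PSII subunits was 0.888, 0.809 and 0.755 in the double mutant and 1.22, 1.17 and 1.33 in cpr5. The same ratio was 1.19 and 1.09 in xpo4-2 and 1.08, 1.01 and 0.822 in wild type. The double mutant lay below cpr5 and xpo4-2 in every library, and it overlapped wild type through its replicate 1 and wild-type replicate 3. LHCI over PSI was 0.342, 0.353 and 0.334 in the double mutant and 0.419, 0.437 and 0.462 in cpr5, and from 0.356 to 0.482 over the wild-type and xpo4-2 libraries. PSI over PSII lay between 0.655 and 0.749 in all 11 libraries. Counts and TPM come from the same libraries, so these ratios are no second measurement of the fall.

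LHCI is the antenna belt of PSI, and LHCA5 and LHCA6 are its rare members, which link PSI to the NDH complex of cyclic electron flow. LHCA6 (AT1G19150, chromosome 1, 6612630 to 6613972, plus strand) had the deepest fall of LHCI. Its levels were 93.8, 75.4 and 52.7 CPM for wild type, 95.5 and 78.0 for xpo4-2, 52.0, 63.2 and 53.2 for cpr5 and 10.6, 13.3 and 4.95 for the double mutant. The double mutant did not overlap any other group, and the fall against cpr5 was 5.85-fold (-2.55 in log2, SE 0.33, adjusted p = 0.000567). LHCA5 (AT1G45474, chromosome 1, 17179250 to 17180806, plus strand) had the shallowest fall of LHCI. Its levels were 103, 103 and 81.5 CPM for wild type, 117 and 100.4 for xpo4-2, 98.7, 94.998 and 82.7 for cpr5 and 29.2, 29.4 and 21.2 for the double mutant. Again the double mutant stood alone, 3.46-fold lower than cpr5 (-1.79, SE 0.16, adjusted p = 0.000119). LHCA5 overlaps a gene on the opposite strand. Of the 53 genes, 18 overlap another gene, and 17 of these overlap on the opposite strand. PSAD2 and PSBP1 overlap a gene on the same strand.

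LHCA1, LHCA2, LHCA3 and LHCA4 form the belt itself and are far more abundant. LHCA1 went from 4039 ± 63.4 CPM (mean ± SD) in cpr5 to 796 ± 158 in the double mutant, 5.07-fold lower (adjusted p = 0.000244). LHCA4, the member with the widest spread in wild type and chosen after its values were seen, stood at 1982, 843 and 321 CPM there. Its levels were 1073 and 538 CPM for xpo4-2, 667, 841 and 623 for cpr5 and 111, 215 and 71.1 for the double mutant. LHCA4 was thus lowest in the double mutant in every library, but it was noisy in wild type, where its highest library was 6.18 times its lowest. Its fall against cpr5 (-2.43, SE 0.60, adjusted p = 0.0172) did not pass under 3 of 20 alternatives, the highest adjusted p being 0.0627 when double mutant replicate 1 was left out.

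The major LHCII antenna is a trimer built from LHCB1, LHCB2 and LHCB3 proteins. LHCB1.4 (AT2G34430, chromosome 2, 14524607 to 14525918, plus strand), whose upstream stretch is printed above, had the deepest fall of the 53 genes. Its levels were 2401, 1384 and 682 CPM for wild type, 2715 and 1684 for xpo4-2, 2525, 2292 and 2178 for cpr5 and 141, 172 and 109.9 for the double mutant. The lowest library outside the double mutant was wild-type replicate 3, and no group overlapped the double mutant. Against cpr5 the gene fell 16.5-fold (-4.05 on the log2 scale, SE 0.42, adjusted p = 0.000209). Its fall from the wild-type level was 10.6-fold (-3.40, SE 0.41, adjusted p = 0.000147).

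LHCB1.3 (AT1G29930, chromosome 1, 10477885 to 10479114, plus strand) had the shallowest fall of the major antenna and the highest mean count of the set. It stood at 15056, 13688 and 8416 CPM for wild type, 18224 and 13774 for xpo4-2, 14559, 14814 and 13449 for cpr5 and 3346, 3872 and 2521 for the double mutant. The groups did not overlap the double mutant here either, and the fall against cpr5 was 4.40-fold (-2.14, SE 0.25, adjusted p = 0.000329). LHCB1.3 overlaps a gene on the opposite strand. LHCB1.1 stood at 1462, 989.9 and 473 CPM for wild type, 1729.7 and 1196 for xpo4-2, 1394, 1332 and 1195 for cpr5 and 133, 156 and 38.5 for the double mutant. LHCB1.2 stood at 931, 776 and 408.0 CPM for wild type, 1347 and 1119 for xpo4-2, 826, 853 and 815 for cpr5 and 149.5, 191 and 71.8 for the double mutant. Neither overlapped between the double mutant and the rest. Between the extremes lay LHCB1.1, 11.97-fold lower, LHCB1.2, 6.06-fold lower, and LHCB1.5, 4.79-fold lower (adjusted p = 0.00117, 0.000893 and 0.00321). LHCB1.5 was the most variable gene within cpr5, at 6736, 3046 and 5960.1 CPM, against 1212, 1462 and 610.1 in the double mutant.

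The LHCB1 genes are close copies, so reads may have been assigned to the wrong copy. Their coding sequences were 87.4% to 96.4% identical in pairs. The first 60 coding bases of the 3 copies on chromosome 1, which have the same coding length, are shown as an example. Capitals mark bases that differ from LHCB1.3, and the sequences are from the RefSeq annotation of TAIR10.1.
LHCB1.3: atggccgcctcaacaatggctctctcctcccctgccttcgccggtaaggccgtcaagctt
LHCB1.1: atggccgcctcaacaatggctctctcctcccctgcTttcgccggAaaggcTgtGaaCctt
LHCB1.2: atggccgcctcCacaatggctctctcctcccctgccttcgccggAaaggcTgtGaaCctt
Each of LHCB1.1 and LHCB1.2 differed from LHCB1.3 at 5 of these 60 positions, and over the whole 804 bases at 31 and 29. The printed stretch is thus less alike than the whole coding sequence. Summed over the 5 copies, which no wrong assignment among them can change, LHCB1 stood at 23991 ± 1883 CPM for cpr5 and 4729 ± 1270.1 for the double mutant, a ratio of 5.07. The share of LHCB1.4 in the LHCB1 total per transcript length was 8.45% in cpr5 (8.01% to 8.996%) and 2.63% in the double mutant (2.46% to 2.87%), and that of LHCB1.3 was 58.9% and 67.7% (54.4% to 66.3% and 64.2% to 73.5%). The ranges of LHCB1.4 did not overlap between these groups, and those of LHCB1.3 did.

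The LHCB2 proteins are among those of the trimer that are phosphorylated when the antenna moves between the photosystems. As a sum their genes went from 1049 ± 46.7 CPM for cpr5 to 127 ± 50.5 for the double mutant, a ratio of 8.27. LHCB2.1, LHCB2.2 and LHCB2.3 fell 8.19-fold, 8.40-fold and 7.94-fold (adjusted p = 0.008, 0.000544 and 0.000195). LHCB2.1 was the most variable gene within the double mutant, at 32.5, 39.0 and 8.85 CPM, and all 3 of these values lay below the lowest of the other libraries, 64.3 in wild-type replicate 3. LHCB3, the remaining trimer gene, had a log2 fold change of -3.22 (SE 0.32).

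The minor antenna proteins LHCB4, LHCB5 and LHCB6 stand between the trimers and the PSII core, and LHCB4 is encoded by 3 genes. LHCB4.1 (AT5G01530, chromosome 5, 208866 to 210548, plus strand) stood at 3277, 3471 and 2374 CPM for wild type, 4782 and 3970.1 for xpo4-2, 3359.5, 3352 and 3179.5 for cpr5 and 1127, 1248 and 972 for the double mutant. LHCB4.2 (AT3G08940, chromosome 3, 2717557 to 2718923, plus strand) stood at 1184, 883 and 569.9 CPM for wild type, 1226 and 1108 for xpo4-2, 1106, 1074 and 1103 for cpr5 and 219, 254 and 127 for the double mutant. Both were lowest in the double mutant without overlap, and against cpr5 LHCB4.2 fell 5.47-fold (adjusted p = 0.000387) and LHCB4.1 2.95-fold (adjusted p = 0.000258). The share of LHCB4.2 in the LHCB4 total per transcript length was 26.9% in cpr5 and 16.2% in the double mutant, without overlap of the ranges (26.2% to 27.8% and 12.6% to 18.4%). LHCB4.2 overlaps a gene on the opposite strand.

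LHCB4.3 (AT2G40100, chromosome 2, 16745628 to 16747424, plus strand), the least abundant LHCB4 gene, did not pass the test. Its levels were 6.39, 11.4 and 14.6 CPM for wild type, 12.01 and 13.3 for xpo4-2, 10.5, 11.03 and 10.5 for cpr5 and 8.47, 9.68 and 8.32 for the double mutant. The double mutant values were below those of cpr5 and xpo4-2 and inside the range of wild type, whose replicate 1 was the lowest of all. The log2 fold change against cpr5 was -0.27 (SE 0.26, adjusted p = 0.504), and those against wild type and xpo4-2 were -0.29 and -0.52 (adjusted p = 0.411 and 0.206). Its log2 fold change lay 1.29 above that of LHCB4.1 and 2.18 above that of LHCB4.2, and the difference itself was not tested. The coding sequences of LHCB4.1 and LHCB4.2 were 72.8% and 73.6% identical to that of LHCB4.3, and 81.9% identical to each other.

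The rest of the minor antenna fell. LHCB5 went from 4157 ± 231 CPM for cpr5 to 778 ± 214 for the double mutant (5.34-fold, adjusted p = 0.000221), and LHCB6 from 2501 ± 87.7 to 543 ± 159 (4.60-fold, adjusted p = 0.000242). LHCB7, the least abundant gene of the set, stood at 5.44, 6.26 and 6.40 CPM for cpr5 and 1.00, 1.88 and 2.19 for the double mutant (3.56-fold lower, adjusted p = 0.00562).

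All 13 genes of PSI fell, from 2.40-fold to 5.25-fold. PSAN (AT5G64040, chromosome 5, 25628521 to 25629708, minus strand), a lumenal subunit on the side where plastocyanin docks, was at 1858, 1612 and 1260.4 CPM for wild type, 2029 and 1659 for xpo4-2, 1298, 1398 and 1309.8 for cpr5 and 234, 348 and 182 for the double mutant. PSAK (AT1G30380, chromosome 1, 10722183 to 10723247, plus strand), which helps to hold the LHCI belt, was at 406, 361 and 404 CPM for wild type, 465 and 466 for xpo4-2, 429.7, 378 and 431 for cpr5 and 161, 206 and 149 for the double mutant. Neither gene overlapped between the double mutant and the rest, and PSAN was the extreme of the complex at a log2 fold change of -2.39 (SE 0.24, adjusted p = 0.000176) against cpr5, and PSAK the other extreme at -1.26 (SE 0.14, adjusted p = 0.000244). PSAN overlaps a gene on the opposite strand. PSAH1 and PSAH2, paralogues of the subunit where LHCII docks during state transitions, fell alike, both at a log2 fold change of -1.78 (adjusted p = 7.28e-05 and 0.000663). The stromal PSAD and PSAE, which hold ferredoxin, fell by 1.51 to 2.14 on the log2 scale over their 4 genes.

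Of the 11 PSII genes 10 fell, among them those of the lumenal proteins around the water-splitting site. Others that fell were PSBW, from a mean of 2252 CPM for cpr5 to 614 for the double mutant, and PSBX, from 1577 to 473. PSBQ2 (AT4G05180, chromosome 4, 2671523 to 2673243, minus strand) had the deepest fall of the complex. It stood at 2009, 1891 and 1319 CPM for wild type, 1972 and 1688 for xpo4-2, 1796, 1760.1 and 1618 for cpr5 and 327, 408 and 281 for the double mutant. The double mutant did not overlap any group, and the fall against cpr5 was 5.09-fold (-2.35, SE 0.20, adjusted p = 9.41e-05). Its paralogue PSBQ1 fell 3.21-fold (adjusted p = 9.31e-05), and the share of PSBQ1 in the PSBQ total per transcript length was 42.1% for cpr5 and 53.6% for the double mutant, over ranges of 41.1% to 42.9% and 51.9% to 55.3%. The same share was 40.6% in wild type (37.5% to 44.8%) and 49.1% in xpo4-2 (47.8% to 50.3%). For this pair it was higher with xpo4-2 in both backgrounds, which was not tested. Other pairs moved in opposite directions. The share of PSAE1 was 59.5% in wild type and 63.7% in xpo4-2, but 59.4% in cpr5 and 55.1% in the double mutant. That of PSBO1 was 79.0% and 76.0%, but 78.0% and 82.0%, in the same order of genotypes. PSBO1, PSBO2 and PSBP1 fell 2.97-fold, 3.77-fold and 4.46-fold, and PSBS, which dissipates excess light, fell 3.47-fold (adjusted p = 0.000539, 0.000309, 0.000201 and 0.000323).

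PSBY (AT1G67740, chromosome 1, 25394031 to 25395249, minus strand), a small membrane subunit of PSII, was the exception of this complex. Its levels were 156, 91.5 and 41.7 CPM for wild type, 152 and 87.4 for xpo4-2, 62.0, 61.04 and 57.0 for cpr5 and 37.8, 54.4 and 29.4 for the double mutant. The double mutant was below cpr5 by little and overlapped wild type, through double mutant replicate 2 and wild-type replicate 3. The log2 fold change against cpr5 was -0.57 (SE 0.40, adjusted p = 0.355). Against wild type PSBY passed (-1.25, SE 0.41, adjusted p = 0.0331), a call lost under 8 of 20 alternatives with an adjusted p of up to 0.156.

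**Figure D3:**
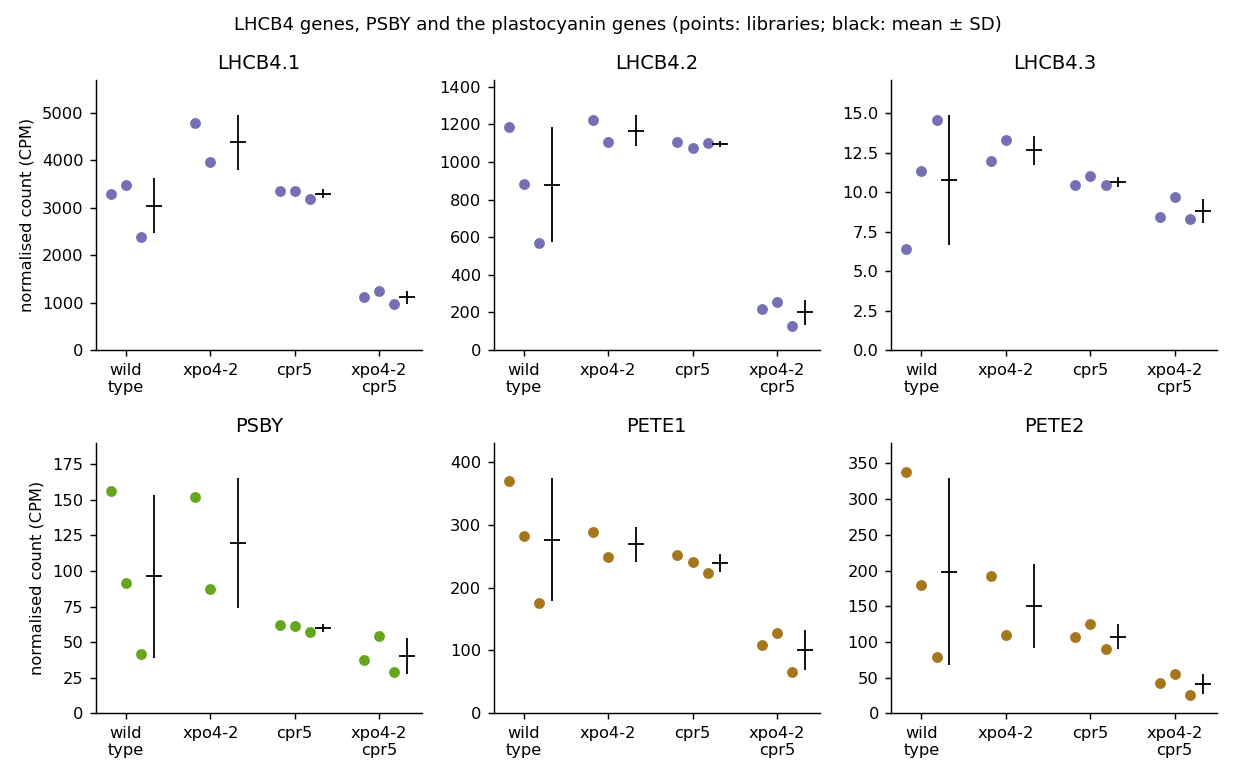
Normalised count (CPM, linear axis from 0) of the LHCB4 genes, PSBY and the plastocyanin genes in each genotype; coloured points are libraries and black marks are the mean ± SD. LHCB4.1, LHCB4.2 and PETE1 drop in the double mutant without overlap, LHCB4.3 stays between 8.32 and 9.68 CPM there, and PSBY and PETE2 spread widely in wild type.

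Of the electron transport genes 5 of 6 fell. FNR2 (AT1G20020, chromosome 1, 6942625 to 6945091, plus strand), a leaf ferredoxin-NADP reductase, had the deepest of these falls. It stood at 1843, 1749.6 and 1418 CPM for wild type, 2018 and 1804 for xpo4-2, 1357, 1437 and 1386 for cpr5 and 389, 464 and 302 for the double mutant. All double mutant libraries were clear of the others, and the fall against cpr5 was 3.62-fold (-1.86, SE 0.17, adjusted p = 0.000131). FNR1, PETC and FD2 fell 3.05-fold, 2.95-fold and 2.80-fold (adjusted p = 0.000442, 0.00024 and 0.000209).

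Plastocyanin, the copper protein that carries electrons to PSI, is made from a pair of genes. PETE1 (AT1G76100, chromosome 1, 28553883 to 28554930, minus strand) was at 370.0, 283 and 175 CPM for wild type, 288 and 249 for xpo4-2, 252, 241 and 224 for cpr5 and 108, 128 and 65.99 for the double mutant. PETE2 (AT1G20340, chromosome 1, 7042046 to 7043392, minus strand) was at 338, 180.1 and 78.5 CPM for wild type, 192 and 109 for xpo4-2, 107, 125 and 90.0 for cpr5 and 42.6, 54.8 and 26.3 for the double mutant. In both genes every double mutant library was below all others. PETE1 fell against cpr5 (-1.25 in log2, SE 0.28, adjusted p = 0.0103), and PETE2, with a larger error, did not pass (-1.38, SE 0.46, adjusted p = 0.0532). Against wild type PETE2 fell 4.82-fold (adjusted p = 0.00344).

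The nuclear ATP synthase genes had the smallest median fall of all complexes. ATPC1 (AT4G04640, chromosome 4, 2350498 to 2352025, minus strand), the gamma subunit that turns in the enzyme, was at 838, 771 and 538 CPM for wild type, 1050.5 and 781 for xpo4-2, 536, 596 and 466 for cpr5 and 257, 322 and 173 for the double mutant. ATPD (AT4G09650, chromosome 4, 6100714 to 6101864, plus strand), the delta subunit, was at 507, 429.9 and 327 CPM for wild type, 755 and 678 for xpo4-2, 361, 386 and 372 for cpr5 and 192, 220.1 and 129 for the double mutant. Both were lowest in the double mutant without overlap, at log2 fold changes of -1.09 (SE 0.24, adjusted p = 0.0102) and -1.05 (SE 0.20, adjusted p = 0.00536) against cpr5. ATPD was also higher in both xpo4-2 libraries than in any wild-type library, but this difference (log2 0.77) missed the threshold (adjusted p = 0.101).

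**Figure D4:**
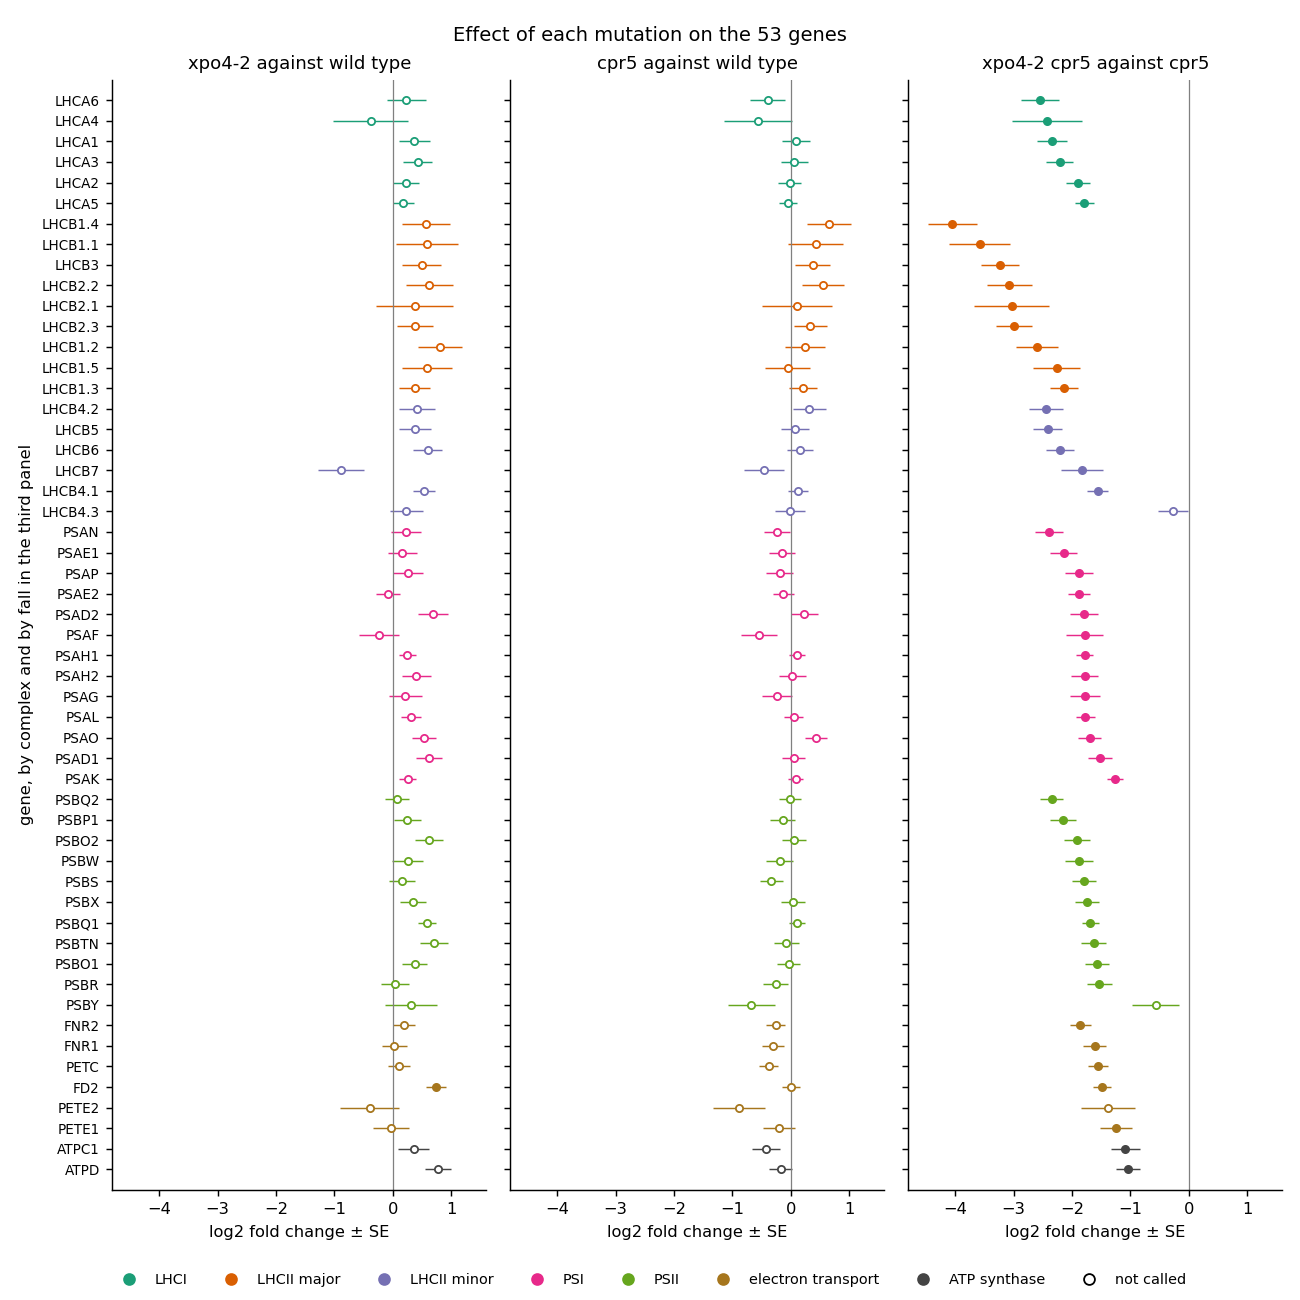
Log2 fold change ± SE (horizontal axes) of each of the 53 genes (vertical axis, by complex) in 3 comparisons; filled points passed at an adjusted p under 0.05 and open points did not. In xpo4-2 against wild type 47 of 53 points lie above 0 with 1 call (FD2), in cpr5 against wild type 28 lie below 0 with 0 calls, and in the double mutant against cpr5 the filled points run from -1.05 (ATPD) to -4.05 (LHCB1.4).

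Each single mutation on its own left these genes largely without calls. In cpr5 against wild type 0 of 53 genes passed in either direction (edgeR quasi-likelihood test), where 6.64% of all genes tested passed. The median log2 fold change was -0.02, 28 of the 53 were below 0, and 2 (PETC and PSAO) had an unadjusted p under 0.05, where 22.2% of all genes tested had one, while DESeq2 called 0 as well. The values ran from -0.89 in PETE2 (SE 0.45) to 0.65 in LHCB1.4 (SE 0.37). A p that misses the threshold does not show equal levels, and the wide spread of the wild-type libraries enters each of these errors.

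In xpo4-2 against wild type 1 gene rose and 0 fell, where 0.755% of all genes tested rose and 1.96% fell. The gene was FD2 (AT1G60950, chromosome 1, 22444307 to 22445291, plus strand), the main leaf ferredoxin, at 338, 373 and 325 CPM for wild type, 543 and 609 for xpo4-2, 288, 366 and 385 for cpr5 and 137, 132 and 102 for the double mutant. Both xpo4-2 libraries were above every other library, by a log2 fold change of 0.74 against wild type (SE 0.17, adjusted p = 0.0447). The call was lost under 13 of 20 alternatives, with an adjusted p of 0.00177 to 0.211, the highest without xpo4-2 replicate 2. The median of the 53 genes was 0.34 with 47 above 0, against 0.02 over all genes tested. An unadjusted p under 0.05 was found for 11 of the 53 and for 18.8% of all genes tested, so this count is near the background. The 6 genes with a fold change below 0 included LHCB7 (-0.89, adjusted p = 0.259) and PETE2 (-0.40, adjusted p = 0.725).

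The interaction compares what xpo4-2 does in the cpr5 background with what it does in the wild-type background. It was lower for 46 of the 53 genes and higher for 0, where 5.51% of all genes tested were lower and 3.20% higher. Its median over the 53 genes was -2.14, against -0.01 over all genes tested, and 49 had an unadjusted p under 0.05 with none above 0, where 23.8% of all genes tested had one. All 9 genes of the major LHCII antenna passed, with LHCB1.4 at -4.61 (SE 0.57, adjusted p = 0.00227) and LHCB1.1 at -4.17 (SE 0.72, adjusted p = 0.00793). The 7 genes that did not pass were LHCA4, LHCB4.3, LHCB7, PSAF, PSBY, PETE1 and PETE2. For FD2, which rose in xpo4-2 alone, the interaction was -2.23 (SE 0.23, adjusted p = 0.00133). Without xpo4-2 replicate 1 the count was 41, and ATPC1, LHCB1.5, LHCB2.1, PSAG and PSBR no longer passed. Over 19 alternatives the call was lost under 8 for LHCB2.1, 7 for ATPC1, 3 for PSBR and 1 each for LHCB1.5 and PSAG.

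**Figure D5:**
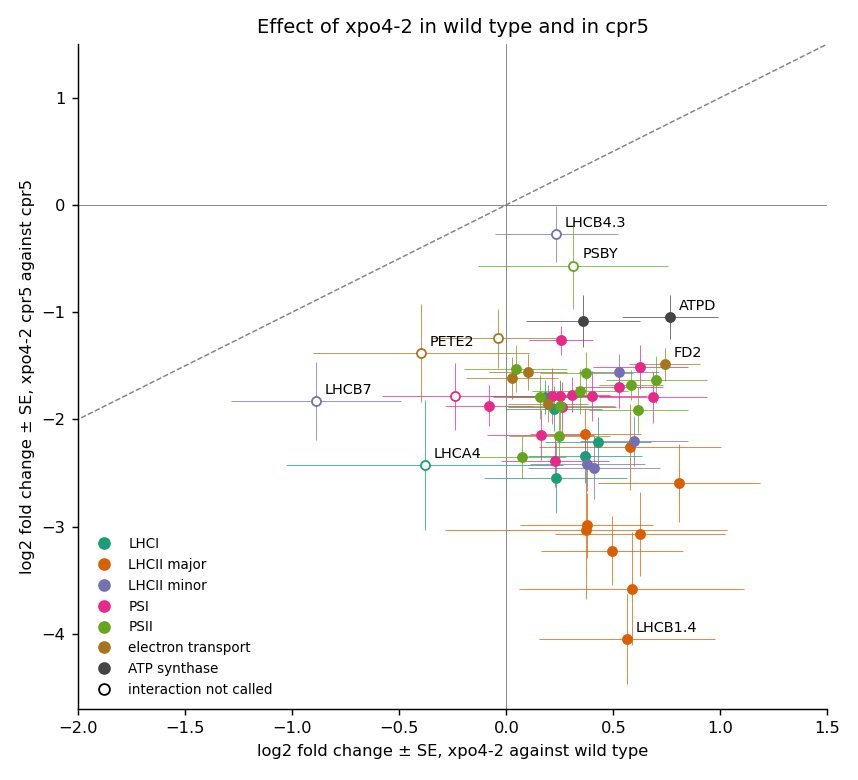
Log2 fold change ± SE of each of the 53 genes in the double mutant against cpr5 (vertical axis) and in xpo4-2 against wild type (horizontal axis); the dashed line marks equal effects, and open points did not pass in the interaction. All 53 points lie below the line, LHCB1.4 the farthest (interaction -4.61) and LHCB4.3 the nearest (-0.50).

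The double mutant was also compared with wild type and with xpo4-2, with which the comparisons above share libraries. Against wild type 52 of 53 genes fell and 0 rose, where 19.1% of all genes tested fell and 18.1% rose, and the median log2 fold change was -2.01. Against xpo4-2 likewise 52 fell and 0 rose, where 15.5% of all fell and 13.2% rose, with a median of -2.25. None of the 53 was above 0 in either comparison, and LHCB4.3 was the gene without a call in both. Against xpo4-2 the call was lost under 8 of 20 alternatives for LHCB7 and 5 for PSBY. It was lost under fewer for PETE2 and LHCA4. The major LHCII antenna had medians of -2.66 against wild type and -3.17 against xpo4-2, and the ATP synthase genes -1.37 and -1.93. Between these ends the order of the complexes was not that found against cpr5. Against wild type the median of electron transport (-1.93) was lower than those of PSII (-1.79) and PSI (-1.76). Against xpo4-2 the median of PSII (-2.29) was lower than that of the minor LHCII antenna (-2.26).

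As descriptions, the fall was set beside the level and sequence of each gene. Across the 53 genes, which are not independent, the log2 mean TPM in cpr5 and the log2 fold change against cpr5 had a Pearson r of -0.25 and a Spearman rho of -0.18. Spearman rho with coding length was -0.305, with the number of coding exons -0.169 and with GC content of the coding sequence -0.152. Genes with a CCAATC in the 250 bases before the start had a median log2 fold change of -2.30 (n = 14) and those without it -1.79 (n = 39), and antenna genes made up most of the former. For the G-box the medians were -1.83 with (n = 11) and -1.83 without it (n = 42).

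Some genes have several transcript models. Of the 53 genes, 34 had 1 transcript in the TPM table and 19 had more. PSAL, a PSI subunit of the LHCII docking side, was assigned to its second model at 97.6% of its TPM in wild type and 99.6% in xpo4-2. That share was 49.3% in cpr5, with single libraries from 2.39e-05% to 99.8%, and 0.00964% in the double mutant. PSAP, a thylakoid protein that also bends the grana margins, had 33.6% in its second model in both wild type (14.0% to 49.7%) and xpo4-2 (20.8% and 46.5%), 9.57% in cpr5 (6.09% to 15.1%) and 6.55% in the double mutant (5.19% to 8.66%). The split between models of a gene is an estimate, and cpr5 libraries of the same genotype fell at opposite ends for PSAL.

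Genes around the photosystems were read from lists that hold no member of the set. Their counts stand beside 12.9% of all genes tested that fell against cpr5 and 8.82% that rose. In the double mutant against cpr5, 13 of 14 nuclear genes of the NDH complex of cyclic electron flow fell (median log2 fold change -1.70), led by PNSL2 of its lumenal part (-2.38, adjusted p = 0.000374; 40.0, 52.0 and 44.5 CPM for cpr5, 8.10, 12.2 and 6.05 for the double mutant). Of 10 genes that regulate the thylakoid 9 fell (median -1.29), led by PGRL1A of cyclic electron flow (-1.95, adjusted p = 0.00109; 259, 257 and 253 CPM for cpr5, 65.6, 88.4 and 45.3 for the double mutant). Of 10 photosystem assembly genes 7 fell (median -0.87), led by the PSII assembly factor HCF136 (-1.41, adjusted p = 0.000221), which went from 196, 213 and 197 CPM to 74.3, 86.4 and 68.0. Of 8 LHC-like stress proteins 5 fell (median -0.84), led by OHP1 (-1.58, adjusted p = 0.00631), which went from 51.0, 51.7 and 45.4 CPM to 18.7, 21.9 and 9.09. None of the genes in these 4 lists rose. Rubisco and Calvin cycle genes fell at 19 of 19 (median -1.47), led by the Rubisco small subunit RBCS3B (-1.74, adjusted p = 0.000232), which went from 4886, 5232 and 4349 CPM to 1482, 1599.9 and 1235. In each of these genes the double mutant libraries lay below those of cpr5, which held for 24.0% of all genes tested.

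Chlorophyll synthesis genes fell at 15 of 17 (median -0.90), where 12.9% of all genes tested fell. The protochlorophyllide reductase PORA passed with the largest fold change, but at 1.45 to 2.59 CPM for cpr5 and 0 to 0.273 for the double mutant it rests on few counts. CHLH, a magnesium chelatase subunit named after its values were seen, went from 502 ± 31.9 to 149 ± 40.9 CPM (log2 fold change -1.76, adjusted p = 0.00133).

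In the double mutant against cpr5, 1 of 6 root-type and minor paralogues rose and 0 fell. Over all genes tested 8.82% rose and 12.9% fell. An unadjusted p under 0.05 was found for 3 of the 6 and for 34.6% of all genes tested. The one that rose was RFNR1, a ferredoxin-NADP reductase of roots, at 20.4, 24.5 and 23.4 CPM for cpr5 and 54.6, 46.4 and 47.2 for the double mutant (log2 fold change 1.12, SE 0.19, adjusted p = 0.00255). Its levels in wild type, 23.5, 17.1 and 29.6 CPM, and in xpo4-2, 22.0 and 26.3, did not reach those of the double mutant. Of the 6 genes 4 were below 0 against cpr5, with a median log2 fold change of -0.23, and RFNR2 of the same list had no call. The leaf reductases FNR1 and FNR2 fell and RFNR1 rose, and the differences between them were not tested.

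Of 12 regulators of photosynthesis genes 1 rose and 2 fell in the double mutant against cpr5 (median 0.08). These counts are near the 8.82% and 12.9% of all genes tested. An unadjusted p under 0.05 was found for 8 of the 12, above the 34.6% of all genes tested. Against wild type 2 of the 12 rose and 6 fell, where 18.1% and 19.1% of all genes tested did. GLK1, an activator of antenna and chlorophyll genes, was at 57.6, 61.1 and 53.8 CPM for wild type, 47.3 and 40.5 for xpo4-2, 37.1, 44.6 and 42.0 for cpr5 and 23.3, 25.6 and 28.2 for the double mutant. It was lowest in the double mutant without overlap, with a log2 fold change of -0.68 against cpr5 (SE 0.13, adjusted p = 0.00392) and of -0.48 in cpr5 against wild type (adjusted p = 0.0458). GLK2, its paralogue, missed the threshold against cpr5 (log2 0.61, adjusted p = 0.114) and rose by 1.08 against wild type (adjusted p = 0.00766). The GATA factor GNC, which promotes chlorophyll synthesis, was at 6.57, 3.13 and 8.42 CPM for wild type, 7.39 and 9.86 for xpo4-2, 1.81, 2.64 and 6.04 for cpr5 and 10.4, 10.0 and 12.6 for the double mutant. Its lowest library was in cpr5, and against wild type and xpo4-2 it did not pass (adjusted p = 0.154 and 0.645). It rose against cpr5 (1.66, SE 0.46, adjusted p = 0.0265), and the plastid sigma factor SIGB fell (-0.44, adjusted p = 0.0444).

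Markers of other cell types were read in the same libraries. The summed level of 6 trichome markers was 5.28 to 7.76 CPM for the double mutant and 12.4 to 24.6 for the other genotypes. Against cpr5, 5 of 6 fell, where 12.9% of all genes tested did. For 12 root markers the sum was 55.1 to 73.6 CPM for the double mutant, 48.8 to 56.3 for cpr5, 39.3 and 73.5 for xpo4-2 and 7.11 to 36.4 for wild type. Of these 0 passed against cpr5 (4 at an unadjusted p under 0.05, where 34.6% of all genes tested had one) and 4 rose against wild type, where 18.1% of all did. For 7 guard cell and stomatal lineage markers the sum was 73.4 to 101 CPM for the double mutant, 59.7 to 70.4 for cpr5, 68.2 and 70.6 for xpo4-2 and 47.6 to 89.8 for wild type, with 1 of 7 higher against cpr5. For 8 vascular markers it was 163 to 236 CPM for the double mutant, 233 to 337 for cpr5, 240.1 and 259 for xpo4-2 and 194 to 229 for wild type, with 1 of 8 lower against cpr5. In both lists the double mutant overlapped wild type. Over all genes tested 8.82% rose and 12.9% fell against cpr5, so the counts of 1 of 7 and 1 of 8 are near the background. IRT1 was at 0 in wild-type replicates 1 and 3, NRT2.1 in xpo4-2 replicate 2 and VND7 in wild-type replicate 2. The part of these shifts in the fall of the photosynthesis genes was not tested.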

How the data were processed

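Counts per gene were used as the authors deposited them. HISAT2 2.0.4, HTSeq 0.6.1p1 and the TAIR10 build are named, without roles, per the submitters' processing notes. Strand setting and treatment of multi-mapped reads are not given in the sources used here. TPM values per transcript model were deposited by the authors, with kallisto in the table's name, and were summed per gene here. The members and lists were chosen with earlier results of these data known.

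Of 22160 genes, 21580 passed edgeR's filterByExpr. One edgeR 4.0.16 quasi-likelihood fit over all 11 libraries (R 4.3.3, TMM scaling, a term per group, no block) gave 6 comparisons, with Benjamini-Hochberg adjustment over all genes tested and a threshold of 0.05. The SE is the fold change divided by the square root of F. The biological coefficient of variation was 0.305. The fit was tested on simulated data. Alternatives were RLE or no scaling, other filters, DESeq2 1.42.0, limma 3.58.1 on log2(TPM + 0.5) and log2(TPM + 0.1), a replicate block, only the groups compared, and each library left out.

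Values per library are given for the genes with the lowest and highest log2 fold change against cpr5 in each complex, paralogues of PSAD, PSAE, PSAH, PSBO, PSBQ, PETE, FNR or LHCB4 that differ by more than 1, and genes whose call is not that of most members; from other lists, for the called gene with the largest rise and fall. Other genes were named after their values were seen. Promoters and coding sequences came from RefSeq TAIR10.1.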

Additional observations from a re-analysis of the deposited data

Results flagged for a closer look

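The effect of xpo4-2 differed between the cpr5 and the wild-type background by the test of the interaction for 46 of the 53 genes, all lower. From each complex the called gene with the lowest interaction was picked, so these values are extremes. On the log2 scale they were -2.78 for LHCA6, -4.61 for LHCB1.4, -2.86 for LHCB4.2, -2.62 for PSAN, -2.53 for PSBO2, -2.23 for FD2 and -1.81 for ATPD. The median over the 53 genes was -2.14. Groups held 2 or 3 libraries, too few for a test of single outlying libraries.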

How the results depend on the processing

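In xpo4-2 against wild type the count of higher genes, 1 as reported, was 2 with no scaling, 3 with DESeq2, and 0 with the replicate block, with limma at either pseudocount and with only the groups compared. It ran from 0 to 3 with single libraries left out. In cpr5 against wild type the count of lower genes ran from 0 to 1, with 1 without wild-type replicate 3. Lower genes numbered 49 to 51 against cpr5, 51 to 52 against wild type, 48 to 52 against xpo4-2 and 41 to 49 in the interaction when single libraries were left out. With the replicate block these counts were 51, 52, 51 and 46, with DESeq2 51, 52, 52 and 48. Over all alternatives, the calls of the genes that passed were kept in 3914 cases, lost in 60 and reversed in 0. Genes without a call were not followed in this way, so these counts say nothing of them or of the medians. Over 15 pairs with the same replicate number, the correlation of deviations ran from -0.0877 to 0.214, 1 pair was over 0.1 and 4 of 11 libraries correlated best with their own number, so the numbers were not taken to pair samples. The 2 xpo4-2 libraries limit every comparison that uses them.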
